A study of Mus musculus with 18 samples.

Results

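The histone deacetylases HDAC1 and HDAC2 act in cells as the catalytic core of several corepressor complexes, and 35 genes that encode their SIN3, NuRD, CoREST and MIER partner subunits were followed across 3 subsets of mouse splenic dendritic cells. The genes were taken by symbol from a list of subunits of these complexes. They comprised 13 SIN3 subunits, 10 NuRD subunits, 7 CoREST subunits, 3 MIER proteins and the histone chaperones Rbbp4 and Rbbp7, which SIN3 and NuRD share. All 35 were among the 15219 genes listed in each of the 3 raw count tables, out of 17903 genes listed in at least 1 of them.

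RNA was sequenced from type 1 conventional dendritic cells (cDC1), type 2 conventional dendritic cells (cDC2) and plasmacytoid dendritic cells (pDC) sorted from spleen. Per the labels, each subset was sampled from 3 HDAC1 floxed and 3 HDAC1 Mx1-Cre samples, which gave 18 samples in all, and the mice of both genotypes had received PolyI/C with sorting 2 weeks later. Mx1-Cre is expressed from an interferon-inducible promoter that is active well beyond dendritic cells, so the deletion is not specific to these subsets. The sorts were gated as Lin-, CD64- and XCR1+ for cDC1, CD11b+ and XCR1- for cDC2, and CD11c-intermediate and BST2+ for pDC. The labels do not say whether a sample was 1 mouse or a pool. They do not say that samples came from separate mice either, and p-values measure only the spread between these samples, which may be technical.

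The 18 count columns carry codes (a157 to a174) that match no sample label. Each column could therefore be assigned to its subset, from the table that holds it, but not to a genotype. No comparison of genotypes was made. The 6 columns of a subset hold both genotypes, and the spread within a subset given below includes any difference between them.

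SIN3, NuRD and CoREST are recruited to chromatin by transcription factors and combine deacetylation with other activities. SIN3A and SIN3B are large scaffolds that hold HDAC1 or HDAC2 together with the SAP, SUDS3/BRMS1, ARID4 and ING proteins. NuRD adds the nucleosome remodellers CHD3 and CHD4, the MTA scaffolds and the methyl-CpG-binding domain proteins MBD2 and MBD3. CoREST couples deacetylation to KDM1A, which removes methyl groups from lysine 4 of histone H3, and the MIER proteins bind HDAC1 and HDAC2 through an ELM2-SANT region like that of the MTA and RCOR proteins. Many subunits exist as paralog pairs that can replace each other in a complex.

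Counts of 1 of the subunits with the largest differences are shared with a copy. Sap18 encodes a small SIN3-associated protein that is also part of RNA-processing assemblies, and it has a near-identical copy with a single exon, Sap18b. Of the 31-base words in Sap18b transcripts, 98.8% also occurred in Sap18 transcripts, whereas 13.7% of the words in the longer Sap18 transcripts occurred in Sap18b. The counts of Sap18 and Sap18b are therefore each uncertain, and their sum is given beside Sap18 below.

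Most promoter windows of the subunits were rich in CG dinucleotides, a feature that did not enter the choice of genes. RefSeq promoter windows on GRCm38.p6, which run from upstream of a transcript's start to just inside it, were found for 29 of the 35 genes, as 44 windows. Of these windows, 40 (90.9%) held CG dinucleotides at 0.6 or more of the number their base composition would give. Among all 32851 windows the share was 35.8%. The 32851 windows were not limited to genes detected here, whereas every subunit was detected in every column. No share among detected genes was taken, so the difference cannot be read as particular to these subunits. The windows of Phf21a and Rcor3, the CoREST subunits with the largest differences between subsets, are shown with each CG in capitals, as examples of such CG-rich windows, each up to the annotated exon that begins inside it. Phf21a has a second RefSeq window (chr2:92221222-92221521) that is not CG-rich, with 0.121 of that number and 33.3% G and C, and both of its windows lie at starts inside the gene. The Phf21a stretch is chr2:92185233-92185458 on the + strand and holds 29 CG in 226 bases, and the Rcor3 stretch is chr1:192138063-192138290 on the - strand and holds 36 CG in 228 bases.
Phf21a: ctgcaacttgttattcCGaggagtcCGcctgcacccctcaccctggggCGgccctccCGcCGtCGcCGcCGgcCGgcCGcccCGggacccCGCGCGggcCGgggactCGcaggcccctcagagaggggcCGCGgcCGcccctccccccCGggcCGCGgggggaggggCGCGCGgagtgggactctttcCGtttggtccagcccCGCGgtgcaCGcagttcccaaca
Rcor3: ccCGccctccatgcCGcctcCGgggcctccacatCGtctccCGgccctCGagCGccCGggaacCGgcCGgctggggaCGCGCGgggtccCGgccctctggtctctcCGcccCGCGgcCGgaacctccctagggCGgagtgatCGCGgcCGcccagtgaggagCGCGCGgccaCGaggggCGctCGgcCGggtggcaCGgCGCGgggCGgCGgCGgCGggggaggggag
These are descriptions of the reference sequence, and no methylation or binding was measured.

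Columns held 23530860 to 37105002 counts. On a principal component analysis, the first component (63.6% of the variance) separated pDC from the conventional subsets and the second (19%) separated cDC1 from cDC2. Each subset was high in a marker that defines it. Xcr1 lay between 821 and 1141 CPM (a gene's counts per 1000000 counts of its column) in cDC1. It was at or below 9.90 CPM in cDC2 and 2.71 CPM in pDC. The cDC2 marker Clec4a4 was at 232 to 329 CPM in cDC2 and at or below 7.32 CPM elsewhere. Siglech was at 8009 to 9298 CPM in pDC and at or below 39.1 CPM elsewhere. Some listed markers were higher in another subset. The cDC1 marker Irf8 was at 4210 to 4662 CPM in pDC against 1348 to 1831 CPM in cDC1. The cDC2 marker Cd209a was at 823 to 1298 CPM in pDC against 314 to 569 CPM in cDC2. In the test described below, 8 of 10 cDC1 markers were higher and 1 lower in cDC1 than in pDC. For the 10 cDC2 markers in cDC2 it was 7 and 1, and all 10 pDC markers were higher in pDC. Transcripts of other cell types were present as well, in sorts that were gated as Lin-. The summed CPM of 6 neutrophil markers was 235 to 907 in cDC1, 26.7 to 126 in cDC2 and 11.9 to 227 in pDC. The sum of 6 B cell markers was 98.8 to 171.1 in cDC1, 27.3 to 58.2 in cDC2 and 9.65 to 38.3 in pDC, and the sum of 4 NK cell markers was 14.8 to 21.7 in cDC1 and at or below 5.54 in the other subsets. The sum of 7 erythroid markers reached 8817 in cDC1, 5636 in cDC2 and 6468 in pDC, that of 6 T cell markers (Cd4 among them) was 19 to 35 in cDC1, 112 to 184 in cDC2 and 227 to 368 in pDC, and that of 4 plasma cell markers was 204 to 623, 143 to 177 and 783 to 968 in the same order. The sum of 8 monocyte and macrophage markers was 1012 to 2478 in cDC1, 3044 to 9941 in cDC2 and 7102 to 7979 in pDC, where Ly6c2 alone was at 6706 to 7665 and Lyz2 at 8.90 to 56.1 against 2580 to 9257 in cDC2. Likewise Cd4 alone gave 203 to 346 CPM of the T cell sum in pDC, where Cd3e was at or below 1.19, and Xbp1 gave 662 to 783 CPM of the plasma cell sum. In cDC2 the median of Cd4 alone was 132.7 CPM, and that of the T cell sum was 143.8 CPM. Of the 6 T cell markers, 4 were higher in cDC1 than in cDC2 and 1 (Cd4) was lower, in the test described below. The 6 basophil markers together stayed at or below 5.47 CPM. The part of these markers in the differences of the subunits was not tested, and in sorted bulk samples fewer cells of a type and less RNA per cell cannot be told apart.

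Columns a157 and a172 of cDC1 held the highest subunit levels. The highest CPM of the 6 cDC1 columns lay in a172 for 22 of the 35 genes and in a157 for the other 13. That count was not made over all genes. Summed CPM of the further SIN3, NuRD and CoREST genes, of PRC2 and of cell cycle genes (all below) was also highest in a172. For the MAX network the highest was a157, and for erythroid markers a160. Among genes with a median of at least 10 CPM, the highest cDC1 column was a median of 1.588 times the lowest for 31 subunits. It was 1.531 times for all 7372 such genes. Relative to each gene's median over the 6 columns, the median subunit was at 1.28 in a172 and 1.10 in a157, and between 0.950 and 0.992 in the remaining columns. Column a172 also had the lowest share of counts in its 10 most abundant genes, 17.1% against 21.9% to 23.7% in the other cDC1 columns. After scaling by the trimmed mean of M values (TMM), the median was 1.09 in a172, while a157 (1.026) no longer exceeded a166 (1.031). The highest scaled value lay in a157 for 15 genes, in a172 for 11, in a166 for 5 and in a169 for 4. Fold changes below use TMM scaling, levels are unscaled CPM, and calls that were lost without these 2 columns are named. The columns were picked for their high subunit levels, so leaving them out lowers the subunits in cDC1 by construction, and calls gained without them are not given.

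**Figure D1:**
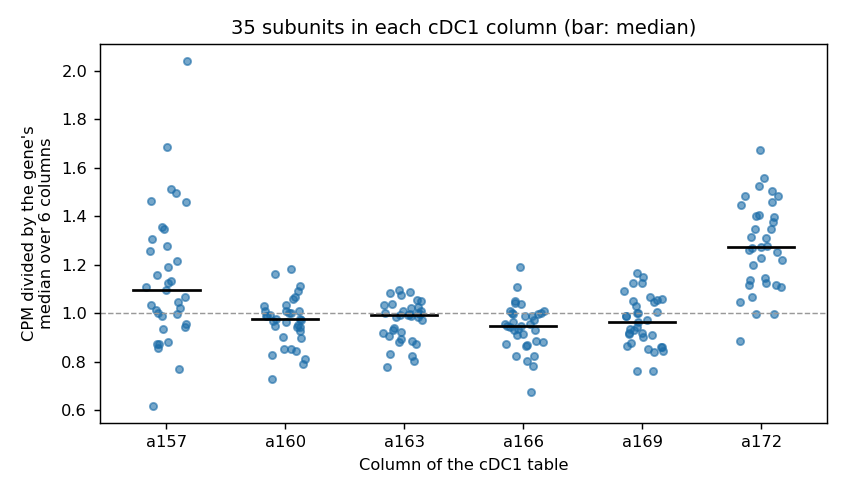
Each point is 1 of the 35 subunits in 1 of the 6 columns of the cDC1 table; the vertical axis is its CPM divided by the gene's median CPM over the 6 columns. The points of column a172 sit highest, with a median of 1.28, followed by a157 with 1.10.

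All 35 subunits were detected in every column, and the lowest count of any of them in any column was 105 (Rcor3 in cDC1). Exon length here is that of all annotated exons of a gene merged, which can exceed that of the transcripts present. Per kilobase of exon, Rbbp7 had the highest median level in each subset, at 111, 96.5 and 53.6 CPM per kb in cDC1, cDC2 and pDC. Cdk2ap1, a small NuRD subunit that also binds the kinase CDK2, came next with 58.5, 55.0 and 52.7 CPM per kb. Rcor3 had the lowest level per kb in each subset, with 0.382, 0.387 and 1.33 CPM per kb. Its merged exons span 13622 bases, and in pDC its median of 18.1 CPM was above that of Mta1 (8.80 CPM). Among all genes with a known exon length, Rbbp7 lay at percentiles 96.6, 96.2 and 93.1 of CPM per kb in cDC1, cDC2 and pDC, and Rcor3 at percentiles 29.5, 29.5 and 43.6.

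**Figure D2:**
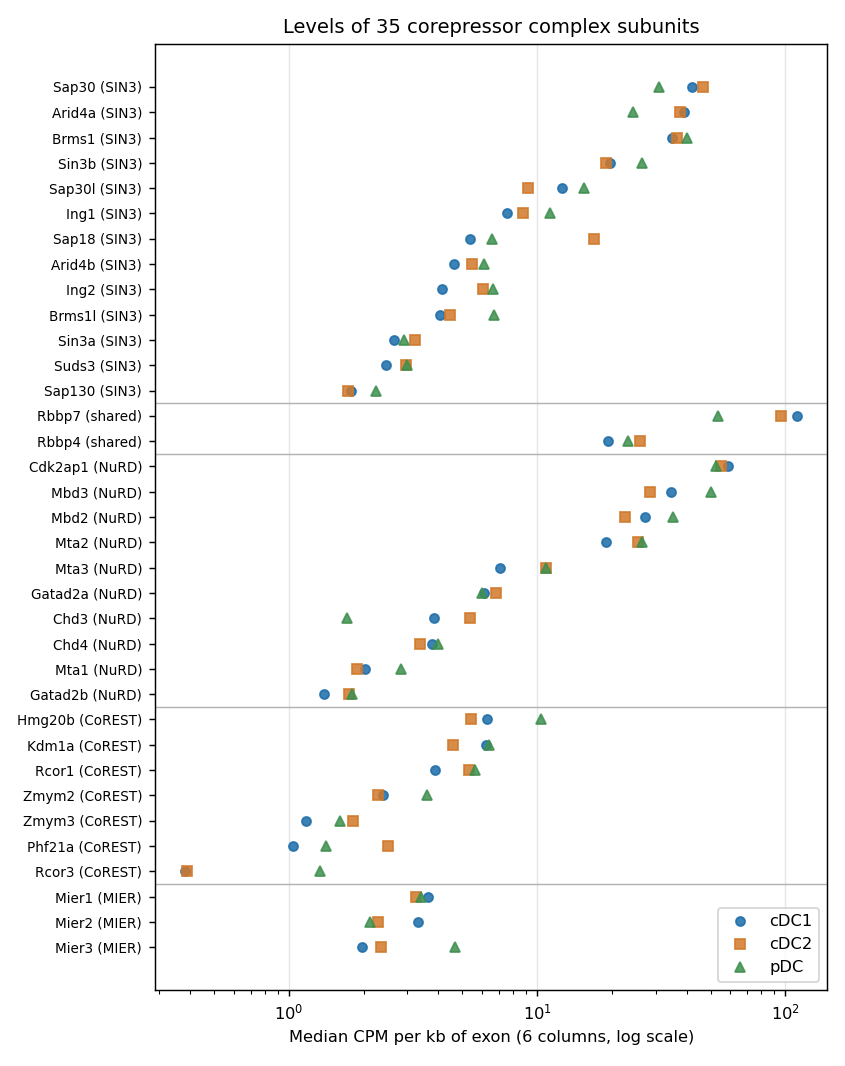
The horizontal axis is the median CPM per kb of exon over the 6 columns of a subset, on a log scale, and each row is 1 of the 35 subunits with its complex; colours stand for the subsets. Rbbp7 lies farthest right in each subset and Rcor3 farthest left.

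Differences between subsets were tested with edgeR's quasi-likelihood test in a single fit over the 18 columns and 13539 genes, with Benjamini-Hochberg adjustment over all of them, and every adjusted p below comes from this test unless another is named. A gene was called at an adjusted p under 0.05. Between cDC1 and cDC2, 18 of the 35 subunits (51.4%) were called, where 50.5% of all genes were. Of these, 7 were higher in cDC1 (24.8% of all genes were) and 11 higher in cDC2 (25.7%). Between cDC1 and pDC, 21 (60.0%) were called against 66.4% of all genes, with 10 higher in cDC1 (34.3% of all genes) and 11 higher in pDC (32.1%). Between cDC2 and pDC, 23 (65.7%) were called against 64.1%, with 12 higher in cDC2 (32.2%) and 11 higher in pDC (32.0%). The numbers called were thus close to the background in each comparison. The 2 comparisons with pDC share the pDC columns, and likewise for the other subsets.

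Large differences were few. At an adjusted p under 0.05 and at least 2-fold, 2 subunits (5.71%) were called between cDC1 and cDC2, 4 (11.4%) between cDC1 and pDC and 5 (14.3%) between cDC2 and pDC, where 17.7%, 30.3% and 30.0% of all genes were. The median absolute log2 fold change of the 35 subunits was 0.22, 0.30 and 0.32 in the 3 comparisons, against 0.37, 0.57 and 0.54 over all genes tested and 0.31, 0.47 and 0.44 over the 8159 genes whose mean CPM lay in the range of the subunits. The median signed log2 fold change was -0.06 for cDC1 over cDC2, -0.08 for cDC1 over pDC and 0.08 for cDC2 over pDC, against 0.01, 0.05 and 0.01 over all genes. The ranges of CPM over 6 and 6 columns did not overlap for 5, 14 and 16 of the 35 subunits, and for 24.3%, 40.0% and 46.0% of all genes listed in the 3 tables.

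The split by direction depended on the scaling. With library size alone the median gene moved by -0.21 on the log2 scale in each comparison with pDC, and the called subunits then divided into 5 higher in cDC1 and 17 higher in pDC, and into 6 higher in cDC2 and 13 higher in pDC. The same change moved the share of all called genes that were higher in cDC1 than in pDC from 51.7% to 38.6%, and that of genes higher in cDC2 than in pDC from 50.1% to 37.3%. Changes against pDC are therefore relative to the median gene. With library size alone Chd4, Gatad2a, Cdk2ap1, Kdm1a and Mier1 were no longer called between cDC1 and pDC, while Sap30l, Arid4b, Rbbp4, Mta1, Mta2 and Rcor1 were called higher in pDC. Between cDC2 and pDC, Sin3a, Rbbp4, Gatad2a, Cdk2ap1, Zmym3 and Mier2 were no longer called, while Sap130 and Ing1 were called higher in pDC. Between cDC1 and cDC2, Arid4b, Ing1 and Mier3 were no longer called. No subunit that was called changed direction under any scaling tried.

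**Figure D3:**
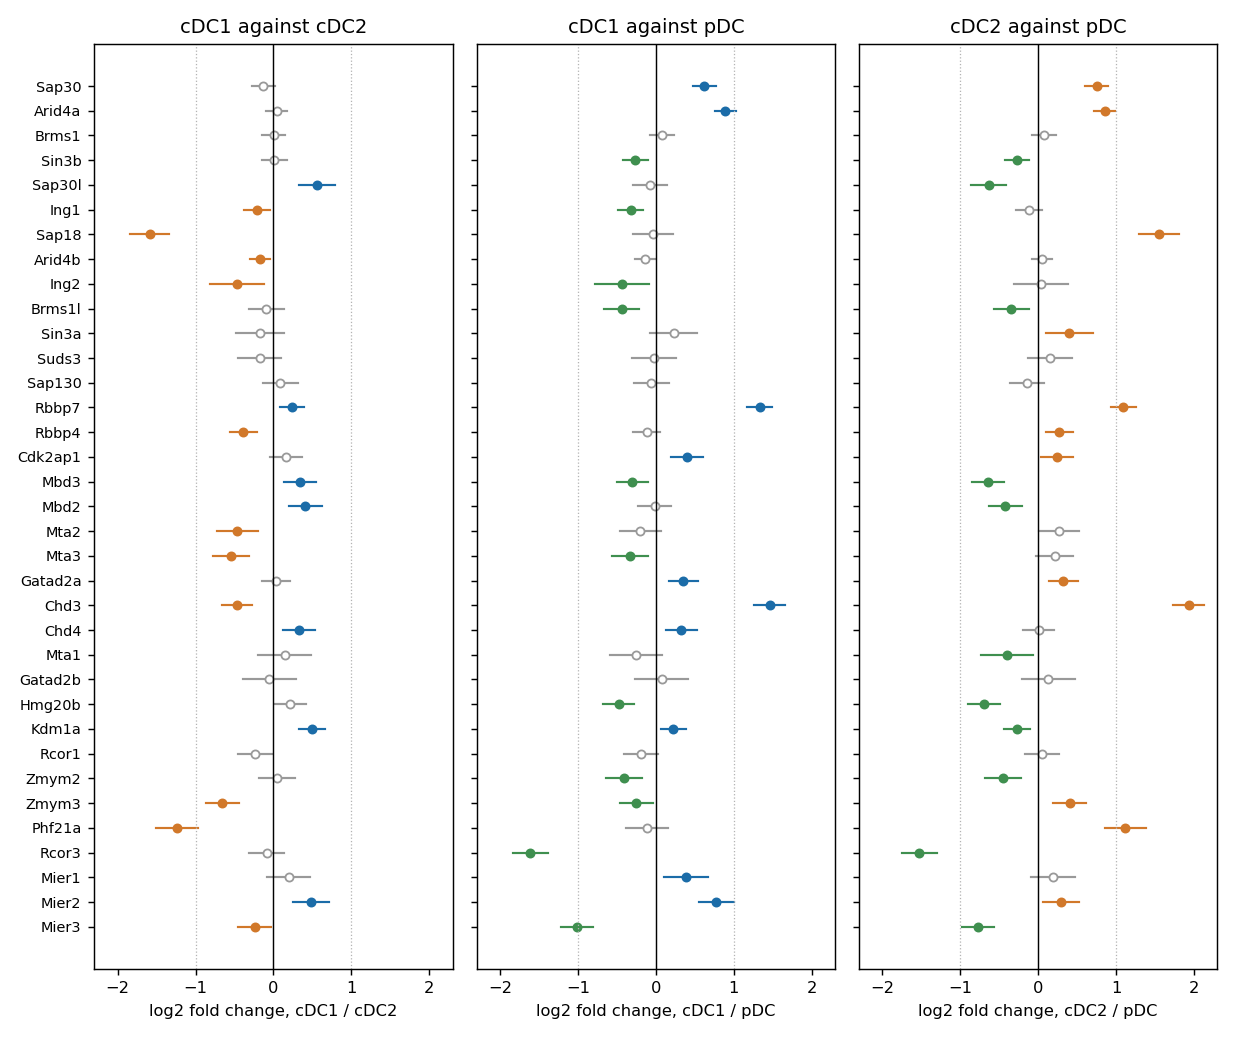
Each panel is 1 comparison and each row 1 subunit; the point is the log2 fold change with its 95% confidence interval from the edgeR fit, filled where the adjusted p was under 0.05, and dotted lines mark 2-fold. Most points lie within 2-fold, and the 6 genes beyond it in at least 1 panel are Sap18, Phf21a, Rbbp7, Chd3, Rcor3 and Mier3.

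The 6 subunits that differed at least 2-fold fell into 3 patterns. Sap18 and Phf21a were higher in cDC2 than in both other subsets. Rbbp7 and Chd3 were lower in pDC than in both conventional subsets. Rcor3 was higher in pDC than in both conventional subsets, and Mier3 was likewise highest in pDC but passed 2-fold against cDC1 only.

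**Figure D4:**
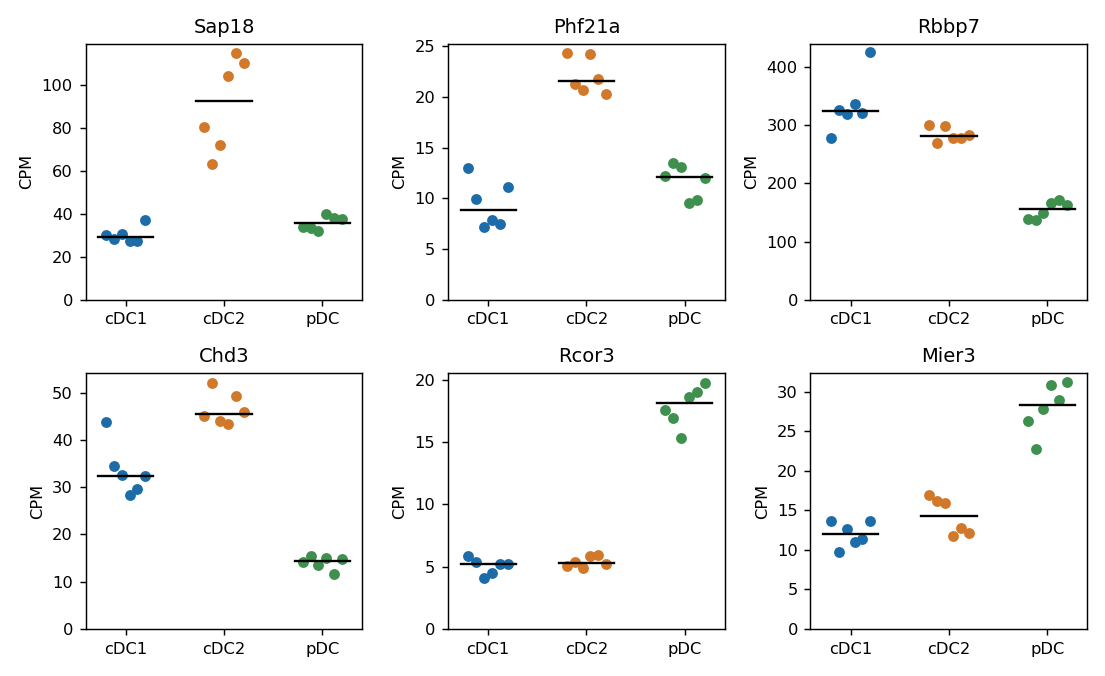
CPM of the 6 subunits that differed at least 2-fold, with 1 point per column, 6 columns per subset and a bar at the median; each panel starts at 0. The cDC2 points of Sap18 and Phf21a lie above all others, the pDC points of Rbbp7 and Chd3 below all others, and those of Rcor3 and Mier3 above all others.

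Among the SIN3 subunits, the 2 scaffolds differed little between subsets. Sin3b was at 128, 144 and 154 CPM (lowest, median and highest column) in cDC1, at 135, 139 and 152 CPM in cDC2, and at 189, 195 and 210 CPM in pDC. The pDC columns lay above all others. Sin3b was 1.2-fold higher in pDC than in cDC1 (log2 -0.26, SE 0.075, adjusted p = 0.00453) and 1.21-fold higher than in cDC2 (adjusted p = 0.00348). Sin3a was at 11.3, 14.3 and 24.0 CPM in cDC1, 13.8, 17.3 and 20.1 CPM in cDC2 and 12.5, 15.7 and 18.9 CPM in pDC, so all 3 ranges overlapped. It was 1.32-fold higher in cDC2 than in pDC (adjusted p = 0.0219), a call that was lost on leaving out a158, a161, a159, a164 or a174 (adjusted p up to 0.07). Between cDC1 and cDC2, Sin3a was not called (adjusted p = 0.352).

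Sap18 had the largest difference between the conventional subsets of any subunit. It was at 27.3, 29.1 and 37.1 CPM in cDC1, at 63.3, 92.2 and 115 CPM in cDC2 and at 31.8, 35.8 and 39.8 CPM in pDC. Every cDC2 column lay above every other column. The gene was 3.01-fold higher in cDC2 than in cDC1 (log2 -1.59 for cDC1 over cDC2, SE 0.123, adjusted p = 1.27e-09) and 2.93-fold higher than in pDC (log2 1.55, SE 0.122, adjusted p = 5.78e-10). Sap18b, the copy, was more abundant, with medians of 155, 333 and 177 CPM in cDC1, cDC2 and pDC. Summed over both copies, the level was 174.3 to 199 CPM in cDC1, 309 to 518 CPM in cDC2 and 196 to 225 CPM in pDC. The sum was 2.22-fold higher in cDC2 than in cDC1 (adjusted p = 5.79e-08) and 2.29-fold higher than in pDC (adjusted p = 1.33e-08). Sap18 alone and the sum of both copies were thus highest in cDC2.

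The SAP30 paralogs, which bridge SIN3 and the deacetylases, differed in which subset was low. Sap30 was at 45.0 to 55.1 CPM in cDC1 and 48.8 to 62.9 CPM in cDC2, above its 34.9 to 42.8 CPM in pDC. It was 1.54-fold higher in cDC1 than in pDC (log2 0.62, SE 0.071, adjusted p = 1.41e-07) and 1.69-fold higher in cDC2 than in pDC (log2 0.75, SE 0.071, adjusted p = 8.57e-09). Sap30l was lowest in cDC2, at 9.08 to 11.9 CPM against 14.4 to 18.4 CPM in cDC1 and 15.5 to 23.5 CPM in pDC. It was 1.47-fold higher in cDC1 (adjusted p = 0.00021) and 1.55-fold higher in pDC (adjusted p = 3.09e-05) than in cDC2.

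The ARID4 proteins, which bind the retinoblastoma protein and tether SIN3, also differed between paralogs. Arid4a was at 190, 219 and 243 CPM in cDC1, 192, 211 and 240.1 CPM in cDC2 and 125, 136 and 141 CPM in pDC. It was 1.86-fold higher in cDC1 (log2 0.89, SE 0.064, adjusted p = 1.29e-10) and 1.81-fold higher in cDC2 (log2 0.85, SE 0.064, adjusted p = 2.5e-10) than in pDC. Arid4b was at 67.9 to 95.6 CPM in cDC1, 83.3 to 103 CPM in cDC2 and 101 to 107 CPM in pDC, and was called only between cDC1 and cDC2 (1.13-fold higher in cDC2, adjusted p = 0.0198). That call was lost without column a169 (adjusted p = 0.0528).

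The remaining SIN3 subunits moved less. Ing1 and Ing2, whose PHD fingers read methylated lysine 4 of histone H3, were lowest in cDC1. Ing1 was 1.16-fold higher in cDC2 (adjusted p = 0.0331) and 1.25-fold higher in pDC (adjusted p = 0.00117) than in cDC1, and Ing2 1.38-fold (adjusted p = 0.0236) and 1.35-fold (adjusted p = 0.0269) higher. Without columns a157 and a172 both Ing2 calls were lost (adjusted p = 0.0645 and 0.0694). They were also lost on leaving out a157, a160 or a163 alone, a167, a170 or a173 (against cDC2) and a168 (against pDC), with adjusted p up to 0.0685. The Ing1 call between cDC1 and cDC2 was lost on leaving out a163, a166, a169, a170 or a173 (adjusted p up to 0.0936). Brms1l was 1.35-fold higher in pDC than in cDC1 (adjusted p = 0.00135) and 1.27-fold higher than in cDC2 (adjusted p = 0.0082). Brms1, Sap130 and Suds3 were not called in any comparison. For Brms1 the 95% intervals of the log2 fold changes lay between -0.15 and 0.23 in the 3 comparisons, but 76.3% of its 31-base words also occurred in the overlapping unlisted gene AC124502.3, so its counts are uncertain. For Suds3 they lay between -0.46 and 0.43, and for Sap130 between -0.37 and 0.31.

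RBBP4 and RBBP7 are WD40 histone chaperones that bind histone H4 in SIN3, NuRD and several other complexes, and the 2 genes had different patterns over the subsets. Rbbp7 (chrX:162760402-162779092) was at 278, 324 and 425 CPM in cDC1, 269, 281 and 301 CPM in cDC2 and 137, 156 and 171.7 CPM in pDC. The pDC columns lay below all others. It was 2.52-fold higher in cDC1 than in pDC (log2 1.33, SE 0.077, adjusted p = 4.16e-12), 2.13-fold higher in cDC2 than in pDC (log2 1.09, SE 0.076, adjusted p = 8.93e-11) and 1.18-fold higher in cDC1 than in cDC2 (adjusted p = 0.0119). Rbbp4 (chr4:129307100-129335370) was at 130, 168.9 and 189 CPM in cDC1, 185, 227 and 234 CPM in cDC2 and 195, 204 and 227 CPM in pDC. It was 1.31-fold higher in cDC2 than in cDC1 (log2 -0.39, SE 0.082, adjusted p = 0.000509) and 1.21-fold higher in cDC2 than in pDC (adjusted p = 0.00661), and was not called between cDC1 and pDC (adjusted p = 0.216). With library size alone this was exchanged: Rbbp4 was not called between cDC2 and pDC (log2 0.07, adjusted p = 0.498) and was higher in pDC than in cDC1 (log2 -0.33, adjusted p = 0.00151). Of the 31-base words of Rbbp4 and Rbbp7, 22.1% and 16.5% occurred in other genes, and 10.65% and 4.91% in other genes listed in the tables. Exons of Rbbp7 overlap those of Txlng on the opposite strand over 6.0% of their length, and the strand setting of the counting is not stated, so the 2 cannot be told apart there (Txlng had a median of 11.5 CPM).

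The NuRD remodellers CHD3 and CHD4 are alternative ATPases of the complex. Chd3 (chr11:69343273-69369406) was at 28.3, 32.5 and 43.9 CPM in cDC1, 43.4, 45.5 and 52.1 CPM in cDC2 and 11.7, 14.4 and 15.5 CPM in pDC. Every pDC column lay below every conventional column. The gene was 3.81-fold higher in cDC2 than in pDC (log2 1.93, SE 0.096, adjusted p = 3.99e-13), the largest difference of any subunit in the 3 comparisons, 2.75-fold higher in cDC1 than in pDC (log2 1.46, SE 0.096, adjusted p = 3.15e-11) and 1.39-fold higher in cDC2 than in cDC1 (adjusted p = 0.000244). Chd4 was at 27.9 to 44.3 CPM in cDC1, 23.0 to 29.4 CPM in cDC2 and 25.2 to 34.4 CPM in pDC. It was 1.25-fold higher in cDC1 than in cDC2 (adjusted p = 0.00901) and 1.26-fold higher than in pDC (adjusted p = 0.00581). Without columns a157 and a172 the first of these was not called (log2 0.21, adjusted p = 0.0644), and with library size alone the second was not (log2 0.12, adjusted p = 0.348).

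The MTA proteins are the scaffolds that bind the deacetylases in NuRD. The medians of Mta2 and Mta3 were lowest in cDC1: Mta2 was at 48.1 to 117 CPM there and Mta3 at 31.2 to 54.6 CPM, with overlapping ranges in the other subsets. Mta2 was 1.38-fold higher in cDC2 than in cDC1 (log2 -0.46, SE 0.126, adjusted p = 0.00416). Mta3 was 1.46-fold higher in cDC2 (log2 -0.54, SE 0.113, adjusted p = 0.000428) and 1.26-fold higher in pDC (adjusted p = 0.0139) than in cDC1. Mta1 was the scarcest of the 3, at 4.57 to 11.2 CPM over all columns, and was 1.32-fold higher in pDC than in cDC2 (adjusted p = 0.036), a call lost on leaving out a161, a165, a167, a168 or a171 (adjusted p up to 0.0913).

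MBD2 binds methylated CpG and MBD3 takes its place in a distinct form of NuRD. Mbd3 was at 59.8, 68.5 and 96.0 CPM in cDC1, 45.7, 56.4 and 64.0 CPM in cDC2 and 85.1, 99.4 and 118 CPM in pDC. It was lowest in cDC2, with pDC 1.56-fold higher (log2 -0.64 for cDC2 over pDC, SE 0.096, adjusted p = 6.62e-06) and cDC1 1.27-fold higher (adjusted p = 0.0059), and pDC exceeded cDC1 by 1.23-fold (adjusted p = 0.00894). Mbd2 was likewise lowest in cDC2, 1.33-fold below cDC1 (adjusted p = 0.00222) and 1.34-fold below pDC (adjusted p = 0.00115).

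GATAD2A and GATAD2B bridge the MBD proteins to the remodeller. Gatad2a was 1.28-fold higher in cDC1 (adjusted p = 0.00161) and 1.25-fold higher in cDC2 (adjusted p = 0.00355) than in pDC. Gatad2b was not called in any comparison. Cdk2ap1 was 1.32-fold higher in cDC1 than in pDC (adjusted p = 0.00123) and 1.18-fold higher in cDC2 than in pDC (adjusted p = 0.0406). Since 60.0% of the 31-base words of Cdk2ap1 occurred in other listed genes, nearly all in Gm12184, the 2 were also summed, and the second call was then lost (adjusted p = 0.0576). It was lost as well on leaving out any of the cDC2 and pDC columns but a161 and a171 (adjusted p up to 0.102). With library size alone neither Gatad2a nor Cdk2ap1 was called against pDC in either comparison.

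In CoREST, the scaffolds RCOR1 and RCOR3, which link KDM1A to the deacetylases, behaved differently. Rcor3 (chr1:192098546-192138062) was at 4.07, 5.21 and 5.87 CPM in cDC1, 4.87, 5.27 and 5.92 CPM in cDC2 and 15.3, 18.1 and 19.7 CPM in pDC. Every pDC column lay above every conventional column. The gene was 3.05-fold higher in pDC than in cDC1 (log2 -1.61, SE 0.107, adjusted p = 4.19e-11) and 2.88-fold higher than in cDC2 (log2 -1.52, SE 0.107, adjusted p = 9.43e-11). Between cDC1 and cDC2 the log2 fold change was -0.08 with a 95% interval of -0.31 to 0.14. Rcor1 was at 19.7 to 34.4 CPM in cDC1, 25.9 to 32.7 CPM in cDC2 and 31.1 to 36.8 CPM in pDC, and was not called in any comparison.

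Phf21a (chr2:92093117-92364666), also known as BHC80, reads unmethylated lysine 4 of histone H3 in CoREST. It was at 7.13, 8.87 and 13.0 CPM in cDC1, 20.3, 21.5 and 24.4 CPM in cDC2 and 9.57, 12.1 and 13.5 CPM in pDC. Every cDC2 column lay above every other column. The gene was 2.35-fold higher in cDC2 than in cDC1 (log2 -1.23, SE 0.128, adjusted p = 1e-07) and 2.17-fold higher than in pDC (log2 1.12, SE 0.128, adjusted p = 1.62e-07). Its CG-rich window is the one shown above.

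Kdm1a, the demethylase itself, was at 27.8, 32.3 and 45.2 CPM in cDC1, 21.2, 23.8 and 26.9 CPM in cDC2 and 29.8, 33.1 and 37.8 CPM in pDC. It was lowest in cDC2, with cDC1 1.41-fold higher (log2 0.49, SE 0.077, adjusted p = 1.98e-05) and pDC 1.21-fold higher (adjusted p = 0.00438). Its 1.17-fold excess in cDC1 over pDC (adjusted p = 0.0151) was lost without columns a157 and a172 (log2 0.13, adjusted p = 0.127) and without column a174 (adjusted p = 0.161). Hmg20b, an HMG-box subunit, was 1.39-fold higher in pDC than in cDC1 (adjusted p = 0.000169) and 1.62-fold higher than in cDC2 (log2 -0.70, SE 0.096, adjusted p = 2.11e-06). Zmym2 was 1.33-fold higher in pDC than in cDC1 (adjusted p = 0.00279) and 1.37-fold higher than in cDC2 (adjusted p = 0.00116). Zmym3 was lowest in cDC1, with cDC2 1.58-fold higher (log2 -0.66, SE 0.101, adjusted p = 1.58e-05), pDC 1.19-fold higher (adjusted p = 0.0331), and cDC2 above pDC by 1.32-fold (adjusted p = 0.00144). With library size alone the last was not called (log2 0.20, adjusted p = 0.135). The call between cDC1 and pDC was lost on leaving out a160, a163, a166, a159 or a171 (adjusted p up to 0.077).

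The MIER proteins form a separate set of HDAC1 and HDAC2 scaffolds. Mier3 (chr13:111680979-111718596) was at 9.72, 12 and 13.7 CPM in cDC1, 11.8, 14.3 and 16.9 CPM in cDC2 and 22.8, 28.4 and 31.3 CPM in pDC, with every pDC column above the others. It was 2.02-fold higher in pDC than in cDC1 (log2 -1.01, SE 0.099, adjusted p = 1.68e-08) and 1.70-fold higher than in cDC2 (log2 -0.77, SE 0.099, adjusted p = 8.29e-07). Mier2 ran the other way: it was 1.72-fold higher in cDC1 than in pDC (log2 0.78, SE 0.109, adjusted p = 2.83e-06), 1.40-fold higher in cDC1 than in cDC2 (adjusted p = 0.000939) and 1.23-fold higher in cDC2 than in pDC (adjusted p = 0.0235). The last was lost on leaving out a158, a165, a162 or a174 (adjusted p up to 0.0918). Mier1 was 1.31-fold higher in cDC1 than in pDC (adjusted p = 0.0152), a call that was lost without column a157 or a174 (adjusted p up to 0.0802). It was also lost without columns a157 and a172 together (log2 0.28, adjusted p = 0.0674). Mier3 between cDC1 and cDC2 was at the threshold (1.18-fold higher in cDC2, adjusted p = 0.0478) and was lost on leaving out any of 8 columns (a160, a163, a166, a169, a172, a158, a161 or a165, adjusted p up to 0.118).

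Over the 3 comparisons, 7 subunits were called in each (Chd3, Kdm1a, Mbd3, Mier2, Mier3, Rbbp7 and Zmym3), 18 in 2, 5 in 1 (Arid4b, Mier1, Mta1, Mta2 and Sin3a) and 5 in none (Brms1, Gatad2b, Rcor1, Sap130 and Suds3). No such split was made over all genes. By complex, the 13 SIN3 subunits gave 5, 6 and 7 calls in cDC1 against cDC2, cDC1 against pDC and cDC2 against pDC. The 10 NuRD subunits gave 6 in each, and the 7 CoREST subunits 3, 5 and 6. The 3 MIER genes gave 2, 3 and 2 calls. Over all genes, 50.5%, 66.4% and 64.1% were called in the same comparisons, and no complex was tested against that share.

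Ratios between paralogs were taken within a column, so that they do not depend on scaling, and are given as a description. The Rbbp4 to Rbbp7 ratio of CPM had medians of 0.497 in cDC1, 0.780 in cDC2 and 1.34 in pDC, and its ranges (0.444 to 0.549, 0.688 to 0.828 and 1.25 to 1.48) did not overlap. Per kilobase of merged exons, Rbbp7 was above Rbbp4 in each subset, with median ratios of 0.165, 0.259 and 0.446. In pDC this is the opposite of the order by CPM, and it rests on the exon lengths (8744 bases for Rbbp4, 2909 for Rbbp7). The Chd3 to Chd4 ratio was 1.03 in cDC1, 1.73 in cDC2 and 0.466 in pDC, with ranges of 0.836 to 1.21, 1.68 to 1.92 and 0.428 to 0.513. The order of the remodellers thus reversed between cDC2 and pDC in every column.

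Other pairs shifted in pDC or in cDC2. The Rcor1 to Rcor3 ratio was 4.99 and 5.60 in cDC1 and cDC2 with overlapping ranges, and 1.87 (1.64 to 2.05) in pDC. The Arid4a to Arid4b ratio was 2.67 and 2.28 in the conventional subsets, whose ranges overlapped, and 1.32 (1.24 to 1.36) in pDC. The Sap30 to Sap30l ratio was highest in cDC2, at 5.42 (4.48 to 5.88), against 3.19 (3.0 to 3.71) in cDC1 and 2.21 (1.58 to 2.28) in pDC. The Mier2 to Mier3 ratio was 1.21 (0.916 to 1.49) in cDC1, 0.770 (0.557 to 0.856) in cDC2 and 0.339 (0.317 to 0.390) in pDC. By contrast, the Mbd2 to Mbd3 ratio stayed between 1.01 and 1.62 in all 18 columns.

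**Figure D5:**
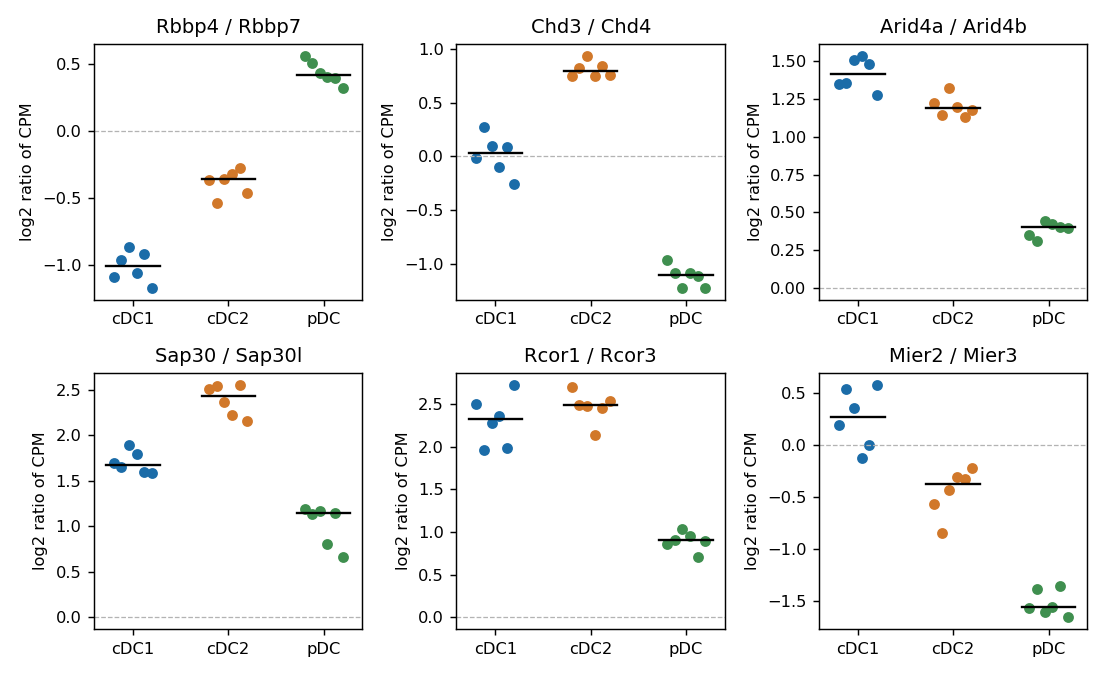
The vertical axis is the log2 ratio of the CPM of 2 paralogs within a column, with 6 columns per subset and a bar at the median; the dashed line marks equal CPM. The Chd3 to Chd4 and Rbbp4 to Rbbp7 ratios of the 3 subsets occupy separate ranges.

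The deacetylases themselves were read from the same fit. Hdac1 spanned 4.94 to 74.6 CPM in cDC1, 5.78 to 79.7 CPM in cDC2 and 9.52 to 124 CPM in pDC, and it was not called in a fit without genotype, in which its log2 fold changes between subsets had standard errors of 0.849 to 0.851. That spread limits the comparison, and it does not show that the subsets had equal levels. In addition, 40.0% of the 31-base words of Hdac1 occurred in other genes, mostly in the unlisted Gm10093. Hdac2 was at 69.1, 93.5 and 140.8 CPM (lowest, median and highest column) in cDC1 and at 74.8, 92.0 and 103 CPM in pDC. The highest cDC1 value was in a172, with the next at 98.5 CPM. With TMM scaling Hdac2 was 1.25-fold higher in cDC1 than in pDC (adjusted p = 0.0188), and it was not called in the other comparisons. Hdac3, the deacetylase of the NCoR and SMRT complexes, was at 52.8 to 79.7 CPM in pDC, 29.2 to 45.0 CPM in cDC1 and 31.2 to 40.2 CPM in cDC2, and was 1.56-fold (log2 -0.64, SE 0.091, adjusted p = 3.57e-06) and 1.60-fold (log2 -0.68, SE 0.092, adjusted p = 1.53e-06) higher in pDC. Hdac8 was 1.26-fold higher in cDC2 than in pDC (adjusted p = 0.0491). How the calls of the deacetylases depend on the scaling or on left-out columns was not examined.

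Among 9 tested further SIN3 subunits, 3 were higher in cDC1 and 3 in cDC2 when these were compared. Against pDC, 4 were higher in cDC1 and 3 in pDC, and 4 were higher in cDC2 and 1 in pDC. The background for this and the lists below is the share of all genes called in each direction. That was 24.8% and 25.7% in cDC1 and cDC2, 34.3% and 32.1% in cDC1 and pDC, and 32.2% and 32.0% in cDC2 and pDC. Sinhcaf, also known as FAM60A, was at 64.7 to 91.1 CPM in cDC1 and 60.1 to 85.2 CPM in cDC2 but at 15.4 to 18.9 CPM in pDC. It was 5.26-fold higher in cDC1 (log2 2.40, SE 0.088, adjusted p = 3.9e-15) and 4.56-fold higher in cDC2 (log2 2.19, SE 0.088, adjusted p = 1.31e-14) than in pDC, a larger difference than that of any of the 13 SIN3 subunits above. Kdm5b, a histone H3 lysine 4 demethylase, was lower in cDC1 than in cDC2 (1.72-fold, adjusted p = 4.41e-06) and in pDC (1.67-fold, adjusted p = 5.15e-06).

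Of 10 further NuRD subunits and partners tested, 4 and 1 were higher in cDC1 and cDC2, 3 and 3 in cDC1 and pDC, and 3 and 4 in cDC2 and pDC. Zmynd8, a reader that binds NuRD, was at 73.4 to 103 CPM in pDC against 25.4 to 31 in cDC1 and 29.6 to 37.8 in cDC2, and was 2.61-fold (adjusted p = 5.83e-11) and 2.24-fold (adjusted p = 8.13e-10) higher in pDC. Of 11 further CoREST subunits and partners, 2 and 4 were higher in cDC1 and cDC2, 3 and 6 in cDC1 and pDC, and 3 and 4 in cDC2 and pDC. Ctbp2, a corepressor that binds CoREST, was at 11.6 to 21.1 CPM in cDC1, 5.37 to 11.5 CPM in cDC2 and 1.62 to 3.03 CPM in pDC, and was 8.08-fold (log2 3.01, SE 0.202, adjusted p = 4.37e-11) and 4.27-fold (log2 2.09, SE 0.198, adjusted p = 9.71e-09) higher in the conventional subsets than in pDC. Rcor2, the third RCOR paralog, was at or below 1.47 CPM in every column.

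Other complexes were set beside these. Of the MiDAC complex, which also holds HDAC1 and HDAC2, 2 of 5 symbols were tested, and Mideas was 2.36-fold higher in cDC2 than in cDC1 (adjusted p = 3.66e-07) and 2.42-fold higher than in pDC (adjusted p = 1.13e-07). Of 7 NCoR and SMRT subunits, 1 and 1, 1 and 2, and 1 and 3 were called in the 2 directions of the 3 comparisons. Of 9 members of the MAX network, whose MXD proteins recruit SIN3, 1 and 2, 3 and 3, and 4 and 3 were called. Mxd1 was 4.22-fold (adjusted p = 3.1e-10) and 5.27-fold (adjusted p = 3.71e-11) higher in cDC1 and cDC2 than in pDC.

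RBBP4 and RBBP7 also serve the Polycomb complex PRC2 and the chromatin assembly factor CAF-1. Of 11 genes listed for PRC2, 2 and 5 were higher in cDC1 and cDC2, 6 and 3 in cDC1 and pDC, and 9 and 2 in cDC2 and pDC. Aebp2 was 3.0-fold (adjusted p = 2.9e-11) and 5.29-fold (adjusted p = 5.3e-14) higher in cDC1 and cDC2 than in pDC. The list also held Eloa, which is a subunit of elongin and not of PRC2, and which was 2.17-fold higher in cDC1 than in cDC2 (adjusted p = 6.66e-11). Of 8 tested partners in other complexes, 0 and 4, 2 and 4, and 3 and 2 were called. The CAF-1 subunits Chaf1a and Chaf1b were 2.55-fold (adjusted p = 3.8e-07) and 2.60-fold (adjusted p = 4.26e-08) higher in cDC1 than in pDC, and 3.31-fold (adjusted p = 1.11e-08) and 3.20-fold (adjusted p = 2.26e-09) higher in cDC2 than in pDC.

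Cell cycle genes also differed between the subsets. All 20 cell cycle genes were higher in cDC1 than in pDC and all 20 were higher in cDC2 than in pDC. Over all genes, 34.3% and 32.2% were. The median log2 fold changes of the 20 genes were 1.76 and 2.15. Between cDC1 and cDC2, 3 of the 20 genes were higher in cDC1 and 12 in cDC2. Their summed level was 655 to 861 CPM in cDC1, 926 to 1242 CPM in cDC2 and 279 to 418 CPM in pDC. Rbbp7, Chd3, Arid4a and Sap30 were lower in pDC as well, but other subunits were higher there. Of the 35 subunits, 10 were called lower in pDC than in cDC1 and 11 higher. Against cDC2, 12 were called lower in pDC and 11 higher. The part of cell cycling in any of these differences was not tested. Of 19 tested genes from a list of dendritic cell transcription regulators, 2 and 9 were higher in cDC1 and cDC2. The counts were 9 and 9 in cDC1 and pDC, and 10 and 8 in cDC2 and pDC. Zeb2 was 8.03-fold higher in cDC2 than in cDC1 (adjusted p = 8.08e-11), and Id2 was 104-fold (adjusted p = 2.92e-17) and 37.2-fold (adjusted p = 3.79e-16) higher in cDC1 and cDC2 than in pDC.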

How the data were processed

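For every subset the authors deposited raw counts per gene and, in another table, values normalized within that subset. Only the raw counts, which are whole numbers, were used here. The tools kallisto and DESeq2 and the build GRCm38 are listed per the submitters' processing notes, with no role or version, and nothing is stated on strand. No table lists a gene with fewer than 10 counts over its 6 columns. The 18 separately normalized columns were not used, and no genotype was assigned to any column. Counts of the genes listed in all 3 tables were fitted in edgeR 4.0.16 (R 4.3.3) with TMM scaling, a low-count filter by subset and the quasi-likelihood test, with Benjamini-Hochberg adjustment. The confidence level is 95%. The fit was also run on simulated counts. Few genes changed there, in cDC1 only, and no genotypes were mixed, so that run does not bear on the calls given here. Alternatives were DESeq2 1.42.0, other scalings, no filter, genes of any table, only the 12 columns compared, a test against a 1.5-fold change, and left-out columns. Gene coordinates, exon lengths and shared 31-base words came from GENCODE M21, an annotation of GRCm38.

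The subunits and gene lists were chosen with earlier results of these data known. All 35 subunits and Hdac1, Hdac2, Hdac3 and Hdac8 could be named, and of each other list the 2 called genes with the largest change per comparison. Clec4a4, Xcr1 and Siglech were named as defining markers.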

Additional observations from a re-analysis of the deposited data

Results flagged for a closer look

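Of 105 sets of 6 columns (35 subunits in 3 subsets), 7 held a value that stood off from the others by more than Dixon's 95% limit, and chance flags about 1 in 20. In cDC1, column a172 was highest by such a gap for Sap18 (37.1 CPM, next 30.7), Mta3 (54.6 CPM, next 39.8), Mbd2 (133 CPM, next 96.7) and Gatad2a (57.4 CPM, next 37.6), and column a157 was highest for Mier1 (68.8 CPM, next 48.5). In cDC2, column a167 was highest for Sap130 (19.7 CPM, next 16.4). In pDC, column a162 was lowest for Arid4a (125 CPM, next 136).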

How the results depend on the processing

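No called subunit changed direction under any alternative. Under the test against a 1.5-fold change, 2, 6 and 8 subunits and 2551, 4705 and 4575 genes were called (cDC1 against cDC2, cDC1 against pDC, cDC2 against pDC), fewer by construction than the 18, 21 and 23 subunits and 6843, 8986 and 8684 genes of the plain test. Of the 105 subunit results, RLE scaling and the genes of any table changed 0 calls, no filter and summing the copies 1 each, DESeq2 2, the 12 columns compared 2, and library size alone 22 (14 lost, 8 gained), where the cause was not tested. Leaving out each column in turn gave 15 to 19, 19 to 23 and 20 to 22 subunits and 6514 to 6820, 8713 to 9097 and 8435 to 8561 genes, and 12 of 62 subunit calls were lost at least once, as named beside the genes. Without cDC1 columns a157 and a172, an alternative chosen after seeing the data like the left-out columns and summed copies, 19 and 21 subunits were called against cDC2 and pDC, with the cDC1 levels lowered by construction. No paired analysis was possible because a column code gives neither a genotype nor a replicate. Each subunit had at least 105 counts in each column, so depth limits small differences of scarce genes such as Rcor3 and Mta1 most.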

Other observations

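The level of Hdac1 is given by column as a value, with no grouping, since the labels give no column a genotype. In cDC1 it was 56.9 CPM in a157, 71.8 in a160, 74.6 in a163, 5.14 in a166, 4.94 in a169 and 9.49 in a172. In cDC2 it was 76.6 CPM in a158, 66.1 in a161, 79.7 in a165, 6.07 in a167, 5.78 in a170 and 7.60 in a173. In pDC it was 114 CPM in a159, 110 in a162, 124 in a164, 13.1 in a168, 9.52 in a171 and 14.7 in a174. The values of each subset fell into 2 clusters of 3 columns, and no column lay between 9.49 and 56.9 CPM in cDC1, 7.60 and 66.1 CPM in cDC2, or 14.7 and 109.7 CPM in pDC.

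Some subunits had an uneven spread within a subset. In 22 of the 105 sets, from 17 genes, the largest gap between neighbouring columns took more than 0.5 of the range, with at least 2 columns on each side. That is 21.0% of the sets, where 12.5% of the 40617 sets of all genes tested did so. More of the 22 subunit sets split into 2 and 4 columns than into 3 and 3. The largest gap among them, 0.723 of the range, was that of Rcor1 in pDC. Rcor1 was at 31.9, 31.7, 31.4, 36.1, 31.1 and 36.8 CPM in a159, a162, a164, a168, a171 and a174. Brms1 in pDC split into 3 and 3, at 62.4, 60.0, 64.7, 75.4, 76.0 and 76.3 CPM in the same columns. Mier3 in cDC2 was at 16.9, 16.2, 15.9, 11.8, 12.8 and 12.1 CPM in a158, a161, a165, a167, a170 and a173. Sap18 in cDC2 was at 80.2, 63.3, 71.8, 104, 115 and 110 CPM in the same columns. Its largest gap, at 0.466 of the range, fell short of the 0.5 used above, so it is not among the 22 sets. Among the 22 sets, Brms1 and Hmg20b in pDC and Mier1 and Mier3 in cDC2 split into 3 and 3 along the same columns as Hdac1. So did Ing2 in cDC1 and in cDC2. Only Mta1 in cDC1 split into 3 and 3 along other columns than Hdac1 did. It was at 8.499, 4.572, 5.231, 4.903, 7.307 and 8.462 CPM in a157, a160, a163, a166, a169 and a172. These genes were chosen after their values were seen, and whether any split goes with the Hdac1 values was not tested.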
